A study of Mus musculus with 3 samples.

Results

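The cells described here were early meiotic prophase spermatocytes, the germ cells of the testis that have finished their last round of DNA synthesis and are pairing and recombining homologous chromosomes. Members were chosen by their UMIs (unique molecular identifiers, each standing for a counted mRNA molecule) of 5 genes: a cell was taken when it held at least 3 UMIs of *Sycp3*, at least 1 of *Dmc1*, at least 1 of *Meiob*, at most 2 of *Stra8* and 0 of *Piwil1*. Only cells with at least 200 detected genes and at most 10% of UMIs from mitochondrial genes were considered, with no upper limit on detected genes. The rule found 393 members among 12358 such cells of 2 droplet 3′ single-cell RNA-seq libraries (3.18%), in a series of 21142 cells and 3 libraries. The Tomato-negative library was made from *Ddx4-creER; R26tdTomato* mice aged 8 weeks, in which tamoxifen starts a red fluorescent protein through a Cre driven in germ cells, and its Tomato-positive cells had been sorted away 4 weeks after tamoxifen. If the cells used here come from that library, its members are spermatocytes that this depletion left. They numbered 39 of 6234 cells. The control library was made from *Scf fl/fl* mice aged 6 weeks, which carry the floxed *Scf* allele without Cre, after haploid spermatids were depleted by flow cytometry, and it held 354 members among 6124 cells. The third library (*Scf*-cKO) was made from *Amh-cre; Scf fl/fl* animals, also aged 6 weeks, which lack *Scf* in Sertoli cells. It is used below only for counts of the cells that the stage rules take and the levels of a few genes in its members. All mice were C57BL/6. The study names 3 mice for each library, but cells carry no label of the mouse, and how many mice gave the cells used here is not known. The cells taken as the Tomato-negative library are those whose barcode ends in _1 in a merged matrix. The labels do not tie these endings to a sample or an experiment. The study's methods also state that cells of the haploid depletion experiment were integrated with the somatic cells. Genotype, age, tamoxifen treatment and depletion are therefore those given for the sample and were not checked for the cells used. Each group is 1 library, so that no difference below has a replicate check and no test was possible. Each level is given for both libraries side by side, and intervals are exact 95% limits that cover counting error only.

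As background, meiotic prophase begins in preleptotene cells, which copy their DNA under the control of *Stra8*. In leptotene and zygotene cells, SPO11 cuts the DNA at sites that the histone methyltransferase PRDM9 has marked, the strand exchange protein DMC1 and its partners search for the homologous chromosome, and the synaptonemal complex joins the paired axes. In pachytene cells the X and Y chromosomes are silenced together in the sex body, and the piRNA protein PIWIL1 and many sperm genes are switched on. The members were therefore set against preleptotene cells (at least 3 *Stra8* UMIs and 0 *Piwil1*) and against *Piwil1*-positive cells (at least 3 *Piwil1* UMIs, at least 3 *Sycp3* and at most 2 *Stra8*). The Tomato-negative library held 1182 preleptotene and 1082 *Piwil1*-positive cells, and the control library 998 and 919.

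Members made up 0.626% (0.445 to 0.854) of Tomato-negative cells and 5.78% (5.21 to 6.39) of control cells, a difference that cannot be told apart from the sorts, ages, genotypes and tamoxifen treatment, which all changed with the library. They were shallow cells, with a median of 6712 UMIs in the Tomato-negative and 4411 in the control library, against 8586 and 5270 in preleptotene cells and 82466 and 49654 in *Piwil1*-positive cells. The stages were set by raw UMIs, with upper limits on *Stra8* and *Piwil1* for members and minimum counts of them for the neighbours. Part of this depth contrast can thus come from the rule itself. When every cell was thinned to 2000 UMIs, members detected a median of 1370 and 1371.5 genes, preleptotene cells 1386 and 1407, and *Piwil1*-positive cells 1264.5 and 1295, in the same order of libraries. Scrublet called 3 Tomato-negative and 11 control members doublets, of 329 and 214 such calls in the libraries, and none of the 9 cell barcodes that the libraries shared belonged to a member.

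A first, small set of members went against the label. *Ldhc* encodes the lactate dehydrogenase of later spermatocytes and sperm, and 4 Tomato-negative and 3 control members held 249 to 1180 *Ldhc* UMIs, where the other members held at most 8 and 11. The same 7 cells held 11 to 78 UMIs of the acrosome gene *Acrv1* (the others at most 2) and 45812 to 227968 UMIs in all. They carried 59.6% of all member UMIs in the Tomato-negative library and 7.82% in the control library. Gene levels below therefore leave out cells with at least 10 *Acrv1* UMIs among members and preleptotene cells, a choice made after the values were seen, which leaves 35 and 351 members (386 in all). With those cells kept, *Sycp1* in Tomato-negative members was 947 CPM (the gene's share of all UMIs summed over the cells, on the counts-per-million scale) in place of 2243.

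The remaining Tomato-negative members also differed in depth, and some of the deeper ones differed in stage markers. 12 of the 35 held over 10000 UMIs and carried 60.5% of the summed UMIs, against 11 of 351 and 8.32% in the control library. In these deeper cells *Sycp1* was 1750 CPM (Tomato-negative) and 1646 CPM (control), and 6 of the 12 Tomato-negative cells were under 800 CPM. In the other 23 and 340 members *Sycp1* was 2998 and 3205 CPM, *Hormad1* 922 and 1331 CPM, and *Prdm9* 309.6 and 261 CPM. *Gfra1*, a receptor subunit of undifferentiated spermatogonia, had 10 UMIs in 2 of the deeper Tomato-negative members and 0 in every other member. The deeper cells were kept in the levels below. Tomato-negative levels, and the counts over both libraries, thus rest in large part on them. The plot of *Sycp1* against depth shows both sets of cells.

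**Figure D1:**
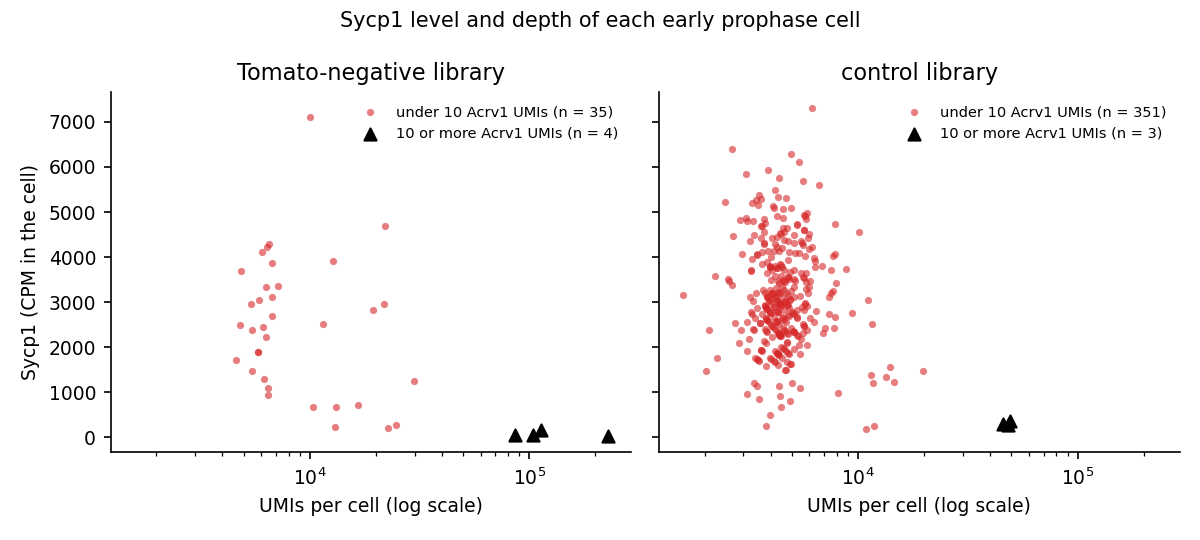
Each point is a member cell, with its UMIs on a log scale on the x axis and its *Sycp1* level (CPM within the cell) on the y axis, for the Tomato-negative and the control library. The 7 black triangles are the cells with at least 10 *Acrv1* UMIs, all at 45812 UMIs or more and near the bottom of the axis, while the control members form a single cloud with a median of 4407 UMIs.

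The 3 high markers of the rule were at 2224 CPM (*Sycp3*), 253 CPM (*Dmc1*) and 214 CPM (*Meiob*) in Tomato-negative members and at 2800.3, 552 and 403 CPM in control members, values that the rule itself set. *Sycp1* and *Hormad1*, which the rule did not use, were detected in 35 and 33 of 35 Tomato-negative members and in 351 and 343 of 351 control members. At the edge of the *Meiob* threshold, 168 control members with 1 *Meiob* UMI had 2991 CPM of *Sycp1* and the 376 cells just outside, with 0 *Meiob* UMIs, had 1188. In the Tomato-negative library the values were 1068 CPM in the 16 members with 1 *Meiob* UMI and 730.0 CPM in the 339 cells just outside. At the *Stra8* edge, the 34 control members with 2 UMIs had 2419 CPM of *Sycp1* and the 18 cells with 3 UMIs had 2247, and the 10 Tomato-negative members with 2 UMIs had 2129 CPM and the 10 cells with 3 UMIs 1477. Endothelial, Leydig and macrophage markers were low. The 4 endothelial markers summed to 0 CPM in Tomato-negative and 1.19 CPM in control members, the Leydig markers to 8.34 and 3.56 CPM, and the macrophage markers to 0 and 10.1 CPM. The peritubular myoid markers summed to 8.34 and 148 CPM, and 3 control members held 46, 32 and 22 of the 120 *Acta2* UMIs there, while every other control member held at most 1. The Sertoli markers, which include the broadly expressed *Ctsl*, summed to 467 and 303 CPM, 1.57 and 1.91 times their preleptotene sum. The markers of undifferentiated spermatogonia summed to 142 and 17.2 CPM, 1.72 and 0.26 times their preleptotene sum.

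Across all genes, a smaller share was past 2-fold against preleptotene cells than against *Piwil1*-positive cells. Among 10573 genes with at least 50 UMIs over both stages in each library, 332 (3.14%) were at least 2-fold higher in members than in preleptotene cells in both libraries and 730 (6.9%) were at least 2-fold lower. Against *Piwil1*-positive cells, 4177 (32.6%) of 12816 genes were at least 2-fold higher and 3002 (23.4%) were lower. With cells thinned to 4000 UMIs before the rule, 168 genes were higher and 604 lower of 7689 measured against preleptotene cells, and 314 higher and 180 lower of the 1031 that could still be measured against *Piwil1*-positive cells. The *Piwil1*-positive group itself changed with thinning, to 19 Tomato-negative and 162 control cells. Its *Sycp1* was then at 1303 and 1057 CPM, in place of 98.5 and 323 CPM. The median log2 ratio over all measured genes was -0.14 in the control and -0.03 in the Tomato-negative library against preleptotene cells, and 0.21 and 0.53 against *Piwil1*-positive cells. The gene lists described next were chosen with earlier results of these data known and are described by their counts and medians beside these values, and they hold the genes of the membership rule, whose levels are not findings.

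Genes of the synaptonemal complex, the protein structure that joins paired chromosomes, were mostly higher in members than in *Piwil1*-positive cells, and fewer were higher than in preleptotene cells. Of 8 measured genes, 3 were at least 2-fold higher than in preleptotene cells in both libraries and 0 were lower, and 7 were higher than in *Piwil1*-positive cells and 1 lower, with *Sycp3* of the rule among the higher. The median log2 ratio of the list was 1.55 (control) and 0.85 (Tomato-negative) over preleptotene cells and 2.95 (control) and 3.53 (Tomato-negative) over *Piwil1*-positive cells. *Sycp1*, the transverse filament, stood at 834, 3075 (2992 to 3160.3) and 323 CPM in preleptotene cells, members and *Piwil1*-positive cells of the control library, and at 862, 2243 (2091 to 2403) and 98.5 CPM in the Tomato-negative library. *Sycp2*, a lateral element protein, stood at 336, 1488 (1430.5 to 1548) and 367 CPM (control) and 364, 967 (868 to 1074) and 213 CPM (Tomato-negative) in the same order. Members were the highest of the 3 stages for both genes in both libraries. The central element genes were split. *Syce2* was at 549, 949 and 37.9 CPM (control) and 579, 648 and 20.4 CPM (Tomato-negative), under 2-fold above preleptotene cells. *Syce1* was at 288, 362 and 747 CPM and 288, 286 and 757 CPM, and was the gene of the list that was lower in members than in *Piwil1*-positive cells. *Syce3*, *Tex12* and *4930447C04Rik* (known as *Six6os1*) were above 2-fold over preleptotene cells in the control library but below it in the Tomato-negative library.

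The chromosome axis and cohesin genes gave a mixed picture against preleptotene cells. Of 12 measured genes, *Ankrd31* was at least 2-fold higher in both libraries, and *Rec8* and *Rec114* were at least 2-fold lower, while 9 of 10 were higher than in *Piwil1*-positive cells and 0 were lower. *Ankrd31*, which promotes DNA breaks on the axis, was at 172, 572 (536 to 609) and 106 CPM in the control and 163, 342 (284 to 408) and 54.7 CPM in the Tomato-negative library. *Hormad1*, the axis protein that monitors unpaired chromosomes, was at 356, 1285 (1232 to 1341) and 294 CPM and 388, 703 (619 to 795) and 149.2 CPM. It was over 2-fold above preleptotene cells in the control library, with a log2 ratio of 1.85 (1.77 to 1.94), and under it in the Tomato-negative library, at 0.86 (0.67 to 1.04). The meiotic cohesin subunits parted. *Rad21l* was at 70.4, 148 and 0.331 CPM (control) and 60.8, 119.5 and 0.102 CPM (Tomato-negative), among the genes furthest above *Piwil1*-positive cells, with log2 ratios of 8.76 and 10.13 that rest on 15 and 9 *Piwil1*-positive UMIs. *Rec8* was at 34.7, 2.37 and 0.729 CPM and 30.9, 5.56 and 4.63 CPM, which for members is 4 and 2 UMIs. *Rec114*, a partner of *Ankrd31* in break formation, was at 62.8, 8.3 and 2.08 CPM and 63.5, 25 and 1.32 CPM. *Smc1b*, a cohesin ring subunit, was at 1176, 2218 and 448 CPM and 1124, 1331 and 295 CPM.

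Genes of DNA break formation and repair followed, in the order in which their proteins act. *Prdm9* was at 145, 245 (222 to 269.7) and 1.21 CPM in the control and 139, 175 (135 to 224) and 0.862 CPM in the Tomato-negative library, so members were close to preleptotene cells and far above *Piwil1*-positive cells. *Spo11* was at 11.5, 103 (88.4 to 119.7) and 93.3 CPM and 9.92, 52.8 (31.8 to 82.5) and 92.9 CPM. Against preleptotene cells *Spo11* was higher by a log2 ratio of 3.16 (2.78 to 3.56) in the control and 2.45 (1.64 to 3.11) in the Tomato-negative library, and against *Piwil1*-positive cells it did not reach 2-fold either way. *Gm960* (*Top6bl*), the partner subunit of SPO11, was at 29.4, 86 and 1.99 CPM and 31.5, 80.6 and 1.36 CPM. It was thus low in *Piwil1*-positive cells, where *Spo11* was not. Of 16 measured strand exchange genes, 2 (*Meiob* of the rule and *Rad51ap2*) were at least 2-fold higher than in preleptotene cells and 0 lower, and 10 were higher and 2 lower than in *Piwil1*-positive cells. *Rad51ap2*, a gene of the strand exchange list, was at 63.6, 503 (470.1 to 538) and 1.48 CPM and 49.8, 269.6 (219 to 329) and 0.794 CPM. Its log2 ratio over preleptotene cells was 2.98 (2.82 to 3.15) in the control and 2.44 (2.11 to 2.75) in the Tomato-negative library, and over *Piwil1*-positive cells it was 8.4 in both. *Psmc3ip*, the HOP2 partner of *Mnd1*, was at 98, 139 and 499 CPM and 95, 114 and 393 CPM, and *Rpa1* was the other gene of the list that was lower in members than in *Piwil1*-positive cells.

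Of 12 measured crossover genes, 4 were at least 2-fold higher in members than in preleptotene cells (*Msh4*, *Hfm1*, *Cntd1* and *Rnf212b*) and 0 lower, and 9 were higher and 1 lower than in *Piwil1*-positive cells. *Hfm1*, a helicase of crossover formation, was at 98.2, 468 (436 to 502) and 41.7 CPM (control) and 88.8, 228 (181 to 283) and 6.5 CPM (Tomato-negative). *Msh4*, which holds recombination intermediates, was at 8.04, 39.1 (30.3 to 49.8) and 5.5 CPM and 7.79, 33.4 (17.2 to 58.3) and 2.47 CPM, from 66 and 12 member UMIs. *Cntd1*, which acts later at crossover sites, was at 27, 83 and 151 CPM and 26.1, 52.8 and 115 CPM and was highest in *Piwil1*-positive cells. The telomere attachment genes, which tie chromosome ends to the nuclear envelope, had 0 of 7 genes past 2-fold against preleptotene cells in both libraries, with a median log2 ratio of 1.11 (control) and 0.59 (Tomato-negative), and 4 of 7 higher than in *Piwil1*-positive cells. The plot of list counts sets these groups side by side.

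**Figure D2:**
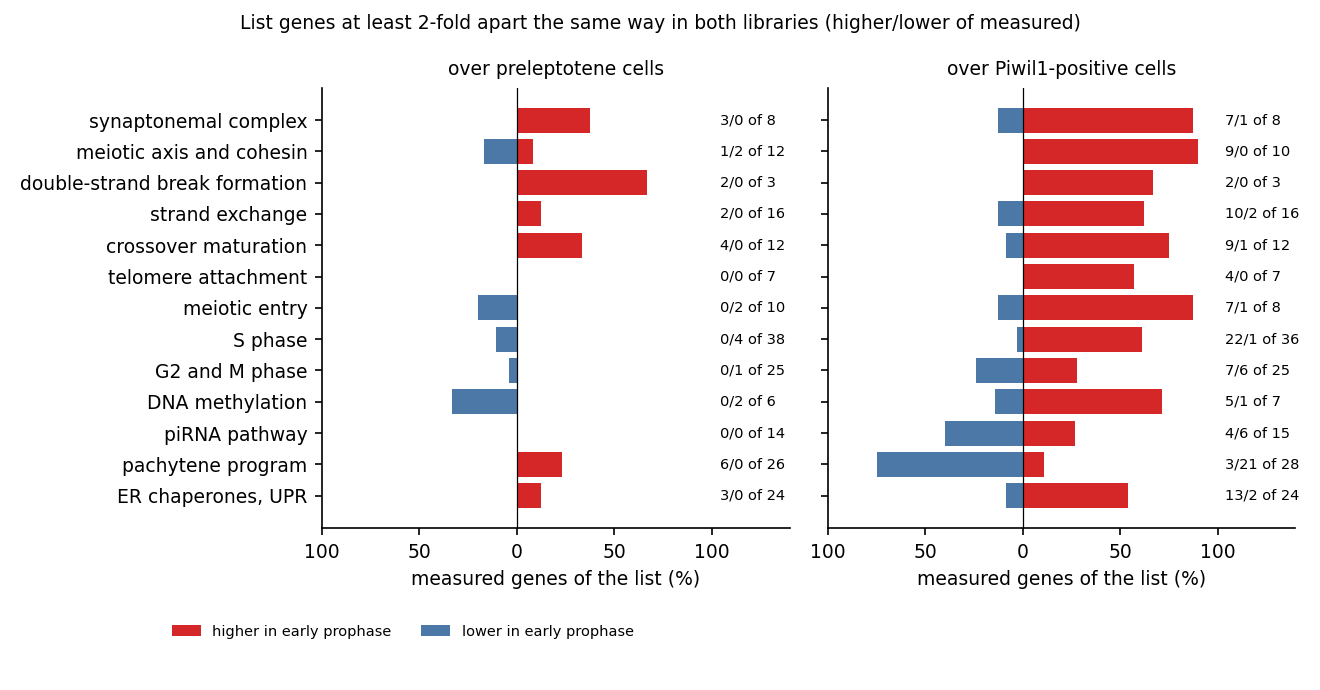
Bars give the share of each list's measured genes (%) that were at least 2-fold higher (red, right) or lower (blue, left) in the 386 members than in preleptotene cells (left panel) or *Piwil1*-positive cells (right panel), the same way in both libraries, with the counts printed beside each bar. Over preleptotene cells only red bars mark synaptonemal complex (3 of 8), break formation (2 of 3), strand exchange (2 of 16), crossover (4 of 12), pachytene (6 of 26) and ER (3 of 24) genes. The axis list has 1 higher and 2 lower of 12. Only blue bars mark DNA methylation (2 of 6), meiotic entry (2 of 10, with *Stra8* of the rule), S phase (4 of 38) and G2 and M phase (1 of 25). Over all genes 3.14% were higher and 6.9% lower. Over *Piwil1*-positive cells the pachytene program is the list with most genes lower (21 of 28). The genes of the membership rule are counted in their lists.

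Some genes of the stages before prophase were lower in members. *Stra8*, which the rule limits, and *Kit*, the receptor for stem cell factor on differentiating spermatogonia, were the 2 of 10 meiotic entry genes that were at least 2-fold lower than in preleptotene cells. *Kit* was at 153, 11.3 (6.78 to 17.6) and 1.52 CPM in the control and 181, 22.2 (9.6 to 43.8) and 1.58 CPM in the Tomato-negative library, and all 8 Tomato-negative *Kit* UMIs were in members over 10000 UMIs. *Sohlh1*, a spermatogonial transcription factor, was at 116, 8.3 and 0.751 CPM and 119, 58.4 and 1.4 CPM, just short of 2-fold in the Tomato-negative library. *Tex15* was at 1566, 2089 and 11.2 CPM and 1272, 1401 and 13.4 CPM, and *Gm4969* (*Meiosin*, the partner of STRA8) at 88.7, 123 and 0.243 CPM and 72.9, 58.4 and 0.159 CPM. Both genes were near their preleptotene level in members and near 0 in *Piwil1*-positive cells. *Dmrtb1*, a transcription factor of the mitosis to meiosis switch, was at 43.5, 43.9 and 845 CPM and 53.1, 52.8 and 982 CPM and was the gene of the list that was lower in members than in *Piwil1*-positive cells. Of 6 measured DNA methylation genes, *Dnmt3b*, a de novo methyltransferase, and *Tet3*, which oxidizes methylcytosine, were at least 2-fold lower. *Dnmt3b* was at 72, 7.71 (4.1 to 13.2) and 2.14 CPM and 72.3, 13.9 (4.51 to 32.4) and 1.08 CPM, the latter from 5 member UMIs. With only cells of 200 to 3500 detected genes kept, the Tomato-negative log2 ratio of *Dnmt3b* over preleptotene cells turned to 1.84. *Tet3* was at 123, 8.89 (4.98 to 14.7) and 0.795 CPM and 77.9, 33.4 (17.2 to 58.3) and 1.15 CPM. *Dnmt1*, the maintenance methyltransferase, was at 310.0, 59.3 and 27.5 CPM and 309, 175 and 11.3 CPM, past 2-fold in the control library only.

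Of 38 S phase genes, 0 were at least 2-fold higher than in preleptotene cells and 4 were lower (*Mcm2*, *Tyms*, *Cdc6* and *Cdt1*), with a list median of -0.58 (control) and -0.53 (Tomato-negative). *Mcm2*, a replication helicase subunit, was at 107, 21.3 and 1.04 CPM (control) and 109, 44.5 and 1.67 CPM (Tomato-negative), and *Tyms*, which makes thymidylate, at 53.8, 7.11 and 1.1 CPM and 46.6, 19.5 and 1.01 CPM. Against *Piwil1*-positive cells 22 of 36 S phase genes were higher and 1 lower. The chromatin remodeller *Hells* was at 821, 993 and 25.3 CPM and 1006, 859 and 16.7 CPM, so it was as high in members as in preleptotene cells. Of 25 G2 and M phase genes 0 were higher and 1 lower (*Plk1*) than in preleptotene cells, with *Mki67* at 391, 711 and 36.4 CPM and 331, 409 and 21 CPM. Of 10 measured apoptosis and checkpoint genes, *Atr* was at least 2-fold higher, and *Trp53* and *Bax* were lower. *Atr*, the kinase that acts on unpaired axes, was at 398, 1286 (1232 to 1341) and 305 CPM and 309, 628 (549 to 716) and 177 CPM. *Bax*, a promoter of cell death, was at 311, 74.1 (61.7 to 88.3) and 8.35 CPM and 233, 108 (77.1 to 148) and 4.81 CPM. The stress genes that tissue dissociation can raise summed to 481 CPM in control and 459 CPM in Tomato-negative members, 0.526 and 0.570 times their preleptotene sum.

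The 8 genes that the rule for named genes placed lowest against preleptotene cells had 0 Tomato-negative member UMIs, so that their rank there rests on the 0.5 UMI added to each count and only a bound on the fold can be given. *Ascl2*, a transcription factor, had 227 UMIs in control preleptotene cells and 2 in members, and 298 and 0 UMIs in the Tomato-negative library. The 0 UMIs allow up to 8.34 CPM (3 counts of 359772 UMIs), so that *Ascl2* was at least 2.62-fold lower there. *Lhx8*, an oogenesis and germ cell factor, had 139 and 1 UMIs (control) and 215 and 0 UMIs (Tomato-negative), at least 1.89-fold lower in the latter. *Sertad4* had 228 and 4 UMIs and 376 and 0 UMIs, at least 3.31-fold lower, and *Cnih2* had 203 and 2 UMIs and 289 and 0 UMIs, at least 2.55-fold lower. *Rnf208*, *Naa10*, *Plxnd1* and *Slc7a2* made up the rest, each with 0 to 2 member UMIs in the control and 0 in the Tomato-negative library. In the control library, where members held 1686608 UMIs, the log2 ratio of *Ascl2* was -4.41 (-7.78 to -2.86) and that of *Lhx8* -4.44 (-10.34 to -2.52).

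A set of genes peaked in members. Among 5990 genes with at least 10 member UMIs in each library, a floor added after the values were seen because ratios of fewer UMIs rest on the 0.5 UMI added to every count, 105 (1.75%) were at least 2-fold above both neighbouring stages in both libraries. Without that floor, among 12798 genes with at least 100 UMIs over the 3 stages in each library, the count was 187 (1.46%). The 105 include *Sycp3* and *Meiob* of the rule and *Sycp1*, *Sycp2*, *Ankrd31*, *Gm960*, *Rad51ap2*, *Hfm1*, *Msh4*, *Rnf212b* and *Atr* above. By chromosome, 9 were X-linked and 3 Y-linked (*Zfy1*, *Zfy2* and *Usp9y*), while chromosomes 2, 3 and 9 held 10, 9 and 8. The genes measured against preleptotene cells, without that floor, were 370 X-linked, 9 Y-linked and 10174 autosomal. The plot of log2 ratios below gives the number of X-linked genes among the 5990. *Zfy2*, a Y-linked zinc finger gene, was at 8.04, 75.3 (62.8 to 89.6) and 0.353 CPM in preleptotene cells, members and *Piwil1*-positive cells of the control library and at 4.63, 38.9 (21.3 to 65.3) and 0.885 CPM in the Tomato-negative library. *Zfy1*, its close paralog, was at 14.1, 58.7 and 0.309 CPM and 8.45, 33.4 and 0.817 CPM, and reads of these near-identical genes could be split between them by the counting. *Ccnb3*, an X-linked cyclin of meiosis, was at 26.9, 222 (199.8 to 245) and 0.662 CPM and 23.1, 122 (88.9 to 164) and 0.613 CPM. For these 3 genes members exceeded both neighbours in each library, and the member intervals did not reach the neighbours' levels. The other sex-linked examples had the same shape. *Usp9y*, a Y-linked deubiquitinase, was at 44.5, 101 and 1.26 CPM and 43.3, 131 and 2.98 CPM. *Pet2*, another X-linked gene, was at 37.2, 243 and 1.97 CPM and 43.7, 233 and 8.65 CPM, and *Maoa*, the X-linked monoamine oxidase A, at 7.35, 52.8 and 0.464 CPM and 12.6, 58.4 and 1.23 CPM. Autosomal genes of the set included regulators of meiosis and a cell surface gene. *Fbxo47*, an F-box gene needed in male meiosis, was at 27, 193 and 1.63 CPM and 29.4, 100.1 and 1.23 CPM, and the protocadherin *Pcdh17* at 6.79, 46.8 and 1.37 CPM and 9.77, 61.1 and 1.51 CPM. Of the 105, ranked by the smaller of the libraries' ratios over the higher neighbour, *Gm42923*, a gene model on chromosome 3, came first, at 4.3, 118 (102 to 136) and 1.15 CPM and 2.13, 66.7 (42.7 to 99.3) and 0.908 CPM. The rule for named genes, which had no floor on member UMIs, also named *A830018L16Rik*, *Gm47113*, *Pmaip1*, *Gm26870*, *Vamp9* and *Tcp11l2* here, with 21 to 108 member UMIs in the control and 6 to 16 in the Tomato-negative library, and *Gm49794*, *Gm10505*, *Cers3* and *Glipr1l2* as high over preleptotene cells, with 36 to 382 and 5 to 21. *Gm27252* and *Gm12974* were named with 2 and 5 member UMIs in the control library, too few for a ratio.

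The share of members with a UMI differed between the genes. *Sycp1* and *Hspa5* had a UMI in every member. With cells thinned to 2000 UMIs, *Zfy2* had a UMI in 12.6% (9.28 to 16.5) of control members, 1.64% of preleptotene cells and 0% (up to 0.401) of *Piwil1*-positive cells, and in 5.71% of Tomato-negative members. *Ccnb3* had a UMI in 36.6% (31.5 to 41.9) of control and 22.9% (10.4 to 40.1) of Tomato-negative members, and *Rad51ap2* in 62.9% (57.6 to 67.9) and 42.9% (26.3 to 60.6). In *Acta2*-positive cells, which should lack all of them and so give the level of free RNA, *Zfy2* had a UMI in 0.286% and 0.2% of cells, *Ccnb3* in 0.572% and 0.2% and *Rad51ap2* in 5.15% and 3.59% (control and Tomato-negative). Before thinning the shares in members were 20.5% and 22.9% for *Zfy2*, 58.1% and 51.4% for *Ccnb3* and 84.3% and 74.3% for *Rad51ap2*.

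**Figure D3:**
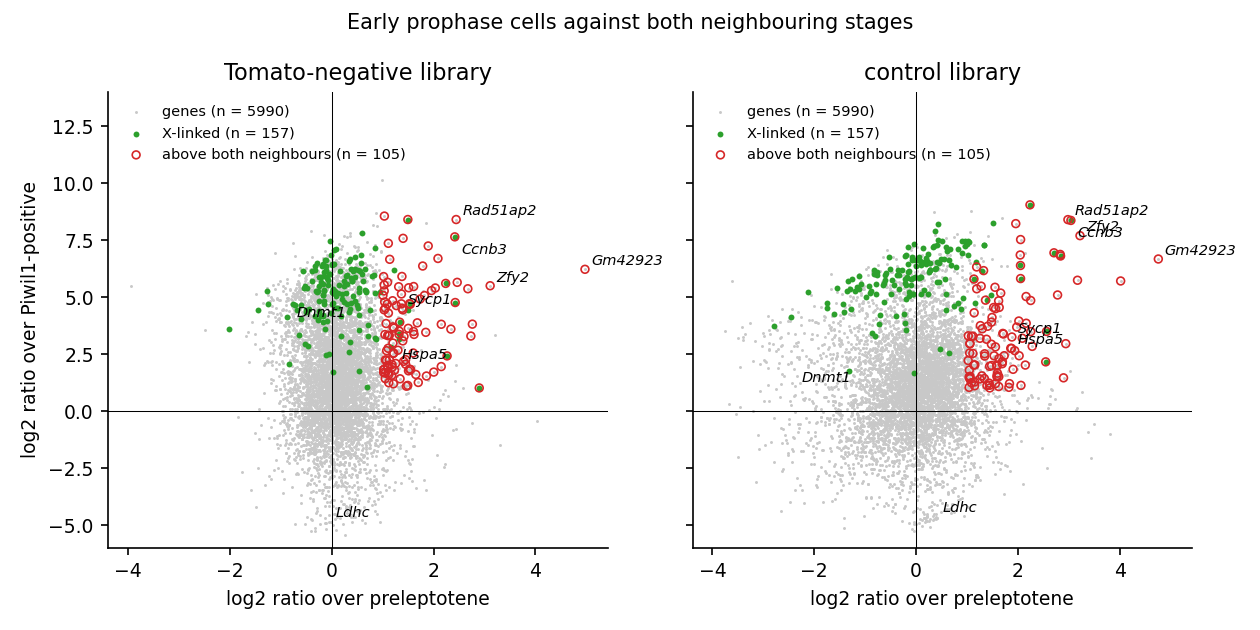
Each point is one of 5990 genes, with its log2 ratio of members over preleptotene cells on the x axis and over *Piwil1*-positive cells on the y axis, in each library. Red circles are the 105 genes at least 2-fold above both neighbours in both libraries, and green points are 157 X-linked genes, nearly all above 0 on the y axis and spread around 0 on the x axis.

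Promoter windows of these genes were searched for short motifs known in meiosis, a choice made after the values were seen. Windows of 300 bases, from 250 before to 50 after a gene's annotated start, came from RefSeq (GRCm38.p6), with the first listed window of each gene used, and 85 of the 105 genes had one. The MYB site TAACGG, searched on both strands, is the core sequence bound by factors such as MYBL1 (A-MYB), the regulator of pachytene genes. It was present in 10 of the 85 windows (11.8%), in 321 of 7270 windows of genes measured against both neighbours (4.42%), and in 2.68% of 27025 windows in all. The measured genes, here and for the other motifs, did not have to pass the floor of 10 member UMIs that the 105 passed. These shares are therefore not of like sets. The 10 genes were *Ccnb3*, *Dzip3*, *Hspa5*, *Msh4*, *Rad51ap2*, *Sycp1*, *Tagap1*, *Zfy1*, *Zfy2* and *1700080O16Rik*, with the close paralogs *Zfy1* and *Zfy2* counted separately. The STRA8-MEIOSIN motif CNCCTCAG was present in 11 of the 85 (12.9%), against 9.83% of measured genes and 7.97% of all windows, the E2F site TTCCCGC in 6 (7.06%), against 10.0% and 4.66%, and the cAMP response element TGACGTCA in 5 (5.88%), against 4.04% and 1.88%. Among the 730 genes lower in members than in preleptotene cells, 562 had a window and 11 of these (1.96%) held the MYB site. The windows of *Zfy2*, *Ccnb3*, *Rad51ap2* and *Sycp1* are shown as examples from the 10 peak genes whose window holds the MYB site, 5′ to 3′ on the gene's strand with the MYB site in capitals (CCGTTA is the same site on the other strand).

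Zfy2 chrY:2170360-2170659 (-): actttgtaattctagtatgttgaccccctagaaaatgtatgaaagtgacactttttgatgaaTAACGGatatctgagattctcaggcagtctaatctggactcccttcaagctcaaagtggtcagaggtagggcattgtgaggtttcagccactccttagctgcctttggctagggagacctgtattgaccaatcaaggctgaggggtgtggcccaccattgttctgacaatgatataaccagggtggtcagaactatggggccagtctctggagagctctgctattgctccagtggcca
Ccnb3 chrX:7041570-7041869 (-): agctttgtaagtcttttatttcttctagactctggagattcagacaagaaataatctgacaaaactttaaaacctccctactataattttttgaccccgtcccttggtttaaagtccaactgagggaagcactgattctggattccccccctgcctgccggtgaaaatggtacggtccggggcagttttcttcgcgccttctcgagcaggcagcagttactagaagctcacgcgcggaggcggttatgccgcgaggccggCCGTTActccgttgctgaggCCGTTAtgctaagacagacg
Rad51ap2 chr12:11455805-11456104 (+): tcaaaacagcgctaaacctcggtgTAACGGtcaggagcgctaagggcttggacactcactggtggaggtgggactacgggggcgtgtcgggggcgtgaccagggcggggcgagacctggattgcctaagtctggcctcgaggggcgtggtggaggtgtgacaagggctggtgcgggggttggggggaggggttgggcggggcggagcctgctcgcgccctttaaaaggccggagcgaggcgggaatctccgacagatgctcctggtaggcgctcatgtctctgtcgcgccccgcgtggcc
Sycp1 chr3:102936051-102936350 (-): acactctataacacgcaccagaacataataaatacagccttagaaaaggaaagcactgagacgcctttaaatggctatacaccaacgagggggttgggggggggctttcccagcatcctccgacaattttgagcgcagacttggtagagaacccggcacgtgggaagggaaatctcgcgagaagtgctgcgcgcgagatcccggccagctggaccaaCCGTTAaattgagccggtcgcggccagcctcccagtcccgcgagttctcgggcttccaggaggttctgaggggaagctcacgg

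Counted from the start of transcription, the site begins at -188 in *Zfy2*, at 10 and 30 in *Ccnb3*, at -226 in *Rad51ap2* and at -33 in *Sycp1*, where STRA8-MEIOSIN motifs also lie at -51 (*Zfy2*) and 32 (*Sycp1*) and an E2F site at -12 (*Rad51ap2*). A match is a description of letters, and whether a factor binds there was not tested. *Mybl1* itself was at 53.5, 246 (223 to 271) and 166 CPM in the control and 55.6, 139 (103 to 183) and 138 CPM in the Tomato-negative library, at least 2-fold higher in members than in preleptotene cells in both libraries.

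A few genes of protein folding in the endoplasmic reticulum (ER) were also high in members, and the list of 24 genes they are set in was written after their values were seen. *Hspa5* (BiP), the main chaperone of the ER, was at 1287, 4725 (4622 to 4829.8) and 703 CPM in the control and 1291, 3079.7 (2901 to 3266) and 724 CPM in the Tomato-negative library, and preleptotene cells of both libraries were close to each other. *Calr*, the calcium-binding chaperone calreticulin, was at 565, 1695 (1634 to 1758) and 418 CPM and 725, 1545 (1419.6 to 1679) and 386 CPM. *Atf6*, a sensor of unfolded protein that cleavage turns into a transcription factor, was at 36.1, 76.5 and 7.88 CPM and 28.9, 58.4 and 5.82 CPM. These were the 3 of 24 genes at least 2-fold higher than in preleptotene cells in both libraries, 0 were lower, and 13 were higher and 2 lower (*Ddit3* and *Herpud1*) than in *Piwil1*-positive cells. The list's median log2 ratio over preleptotene cells was 0.58 (control) and 0.48 (Tomato-negative), and its summed UMIs were 2.14 and 1.58 times the preleptotene sum. *Ddit3* (CHOP), a death-promoting target of the same pathway, was at 19.14, 29.1 and 273 CPM and 21.8, 44.5 and 282 CPM. *Xbp1* was at 19.3, 13 and 6.47 CPM and 21.2, 36.1 and 3.14 CPM, with the libraries on opposite sides of the preleptotene level. The ER stress response element (CCAAT and CCACG with 9 bases between them, searched on both strands) was present in 8 of 20 windows of the list (40%), those of *Calr*, *Canx*, *Creld2*, *Dnajc3*, *Hsp90b1*, *Hspa5*, *Pdia6* and *Syvn1*, against 0.193% of measured genes and 0.130% of all windows. The list was written to hold genes of the response that this element is named for. Its share therefore follows from that choice and is not a result about members. The *Hspa5* window is shown with that element in capitals, beginning at -65, and it also holds a MYB site at -206.

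Hspa5 chr2:34771840-34772139 (+): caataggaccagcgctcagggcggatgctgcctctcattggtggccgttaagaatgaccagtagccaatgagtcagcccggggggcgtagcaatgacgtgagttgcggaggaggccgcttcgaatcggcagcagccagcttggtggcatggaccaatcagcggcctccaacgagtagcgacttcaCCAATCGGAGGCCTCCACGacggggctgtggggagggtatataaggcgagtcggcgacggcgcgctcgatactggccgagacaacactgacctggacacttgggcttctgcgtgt

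The pachytene program, genes that later spermatocytes and sperm use, was low in members for most of its genes. Of 28 genes measured against *Piwil1*-positive cells 21 were at least 2-fold lower in members and 3 higher, with a median log2 ratio of -3.16 (control) and -3.31 (Tomato-negative). Of 26 measured against preleptotene cells 6 were higher (*Mybl1*, *Hspa2*, *Rsph1*, *Pdha2*, *Tesmin* and *Zfy2*) and 0 lower, with a median of 0.60 (control) and 0.31 (Tomato-negative). *Tesmin*, a spermatocyte gene of the CXC domain family, was at 54.9, 330.2 (303 to 359) and 298 CPM (control) and 46.7, 211 (166 to 264) and 128 CPM (Tomato-negative), already at or above the *Piwil1*-positive level. *Rsph1*, a radial spoke gene of the flagellum, was at 80.3, 267 and 3376 CPM and 83.2, 297 and 3282 CPM. *Hspa2*, the testis chaperone, was at 113, 389.5 and 2047 CPM and 96.7, 284 and 1764 CPM, and *Ldhc* at 238, 314 and 7765 CPM and 272, 261 and 7582 CPM. In cells thinned to 2000 UMIs, *Hspa2* had a UMI in 43.1% of control members and 54.6% of control *Acta2*-positive cells, and *Ldhc* in 44.0% and 36.1%. How much of these 2 genes in members is free RNA was not tested. *Rsph1* had a UMI in 29.4% of control members and 16.0% of *Acta2*-positive cells, and *Tesmin* in 48.9% and 3.004%. The spermatid genes, which spermatids make in large amounts, summed to 1188 CPM in control and 1490 CPM in Tomato-negative members, 2.096 and 0.982 times their preleptotene sum, and the part of free RNA in these values was not tested. The piRNA list had 0 of 14 genes past 2-fold against preleptotene cells in both libraries, and 4 higher and 6 lower of 15 against *Piwil1*-positive cells, *Piwil1* of the rule among the lower. *Mov10l1*, the piRNA helicase, was at 448, 625 and 96.7 CPM and 356, 450.3 and 34.1 CPM, while *Tdrd6*, a tudor gene of later germ granules, was at 15.3, 12.5 and 449.9 CPM and 12.6, 8.34 and 347 CPM.

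**Figure D4:**
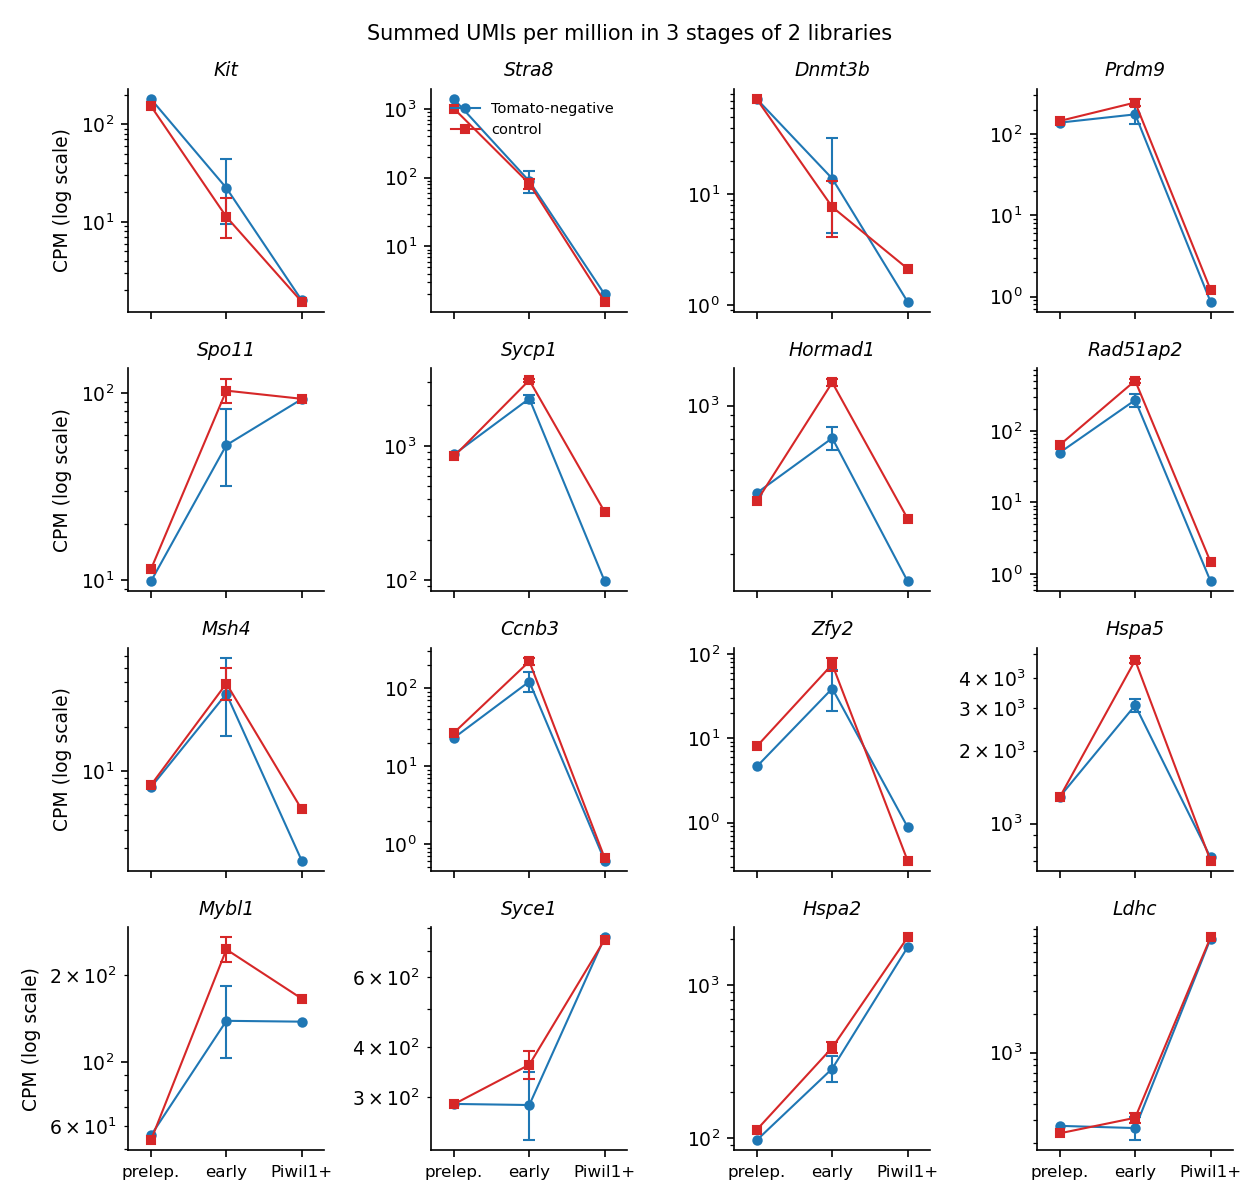
Summed UMIs as CPM (log scale) of 16 genes in preleptotene cells, members ("early") and *Piwil1*-positive cells, with blue circles for the Tomato-negative and red squares for the control library and bars for the exact 95% Poisson interval of the member value. *Kit* and *Dnmt3b* decrease from left to right, *Sycp1*, *Hormad1*, *Rad51ap2*, *Msh4*, *Ccnb3*, *Zfy2* and *Hspa5* are highest in members in both libraries, and *Hspa2* and *Ldhc* are highest in *Piwil1*-positive cells. *Stra8* was used by the rule.

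Other genes below *Piwil1*-positive cells were near absent from members. *Pbp2* had 28938 UMIs in control *Piwil1*-positive cells (639 CPM) and 22 in members (13 (8.17 to 19.7) CPM), and 74180 and 3 UMIs in the Tomato-negative library (842 and 8.34 CPM). *Dnah17*, a dynein heavy chain of the sperm tail, had 8604 and 5 UMIs in the control and 13384 and 0 UMIs in the Tomato-negative library. The other genes named at this end (*Ccdc144b*, *Gm5070*, *4933440M02Rik*, *1700037C06Rik*, *Nsg1* and *Gm4871*) had 0 to 3 member UMIs in the control and 0 in the Tomato-negative library. At the opposite end *Cmc4*, an X-linked gene, was at 30.9, 146 and 0.265 CPM (control) and 32, 88.9 and 0.261 CPM (Tomato-negative), and *Slit2*, *Myl7*, *Rhox7-ps2* and *Magea10* had 1 or 2 *Piwil1*-positive UMIs in the control library against 75, 21, 34 and 43 in members.

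X-linked transcripts were as abundant in members as in preleptotene cells, and scarce in *Piwil1*-positive cells. X-linked genes gave 2.23% (2.21 to 2.25) of the UMIs of control members and 2.26% (2.21 to 2.31) of those of Tomato-negative members, with cell medians of 2.42% and 2.41%. Preleptotene cells were at 2.18% and 2.25%, and *Piwil1*-positive cells at 0.0567% and 0.140%. With the 7 *Acrv1* cells kept, members were at 2.14% (control) and 1.65% (Tomato-negative). Of 223 measured X-linked genes, 190 (85.2%) were at least 2-fold higher in members than in *Piwil1*-positive cells in both libraries and 3 lower, against 3962 of 12562 autosomal genes (31.5%), and all 7 measured Y-linked genes were higher. Against preleptotene cells 14 of 370 X-linked genes (3.78%) were higher and 36 (9.73%) lower, near the shares of 10174 autosomal genes (3.09% higher and 6.81% lower). Of 9 Y-linked genes, 3 were higher and 0 lower. Some members differed from the rest and were like *Piwil1*-positive cells in their X-linked share, and they were kept in all levels above. 23 of 351 control members (6.55%) and 2 of 35 Tomato-negative members had under 1% X-linked UMIs, against 2 of 993 control and 0 of 1173 Tomato-negative preleptotene cells and 917 of 919 control and 1074 of 1082 Tomato-negative *Piwil1*-positive cells. Of the 23 low control members, 21 were among the 157 without a *Prdm9* UMI (13.4% of them) and 2 among the 194 with one (1.03%).

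**Figure D5:**
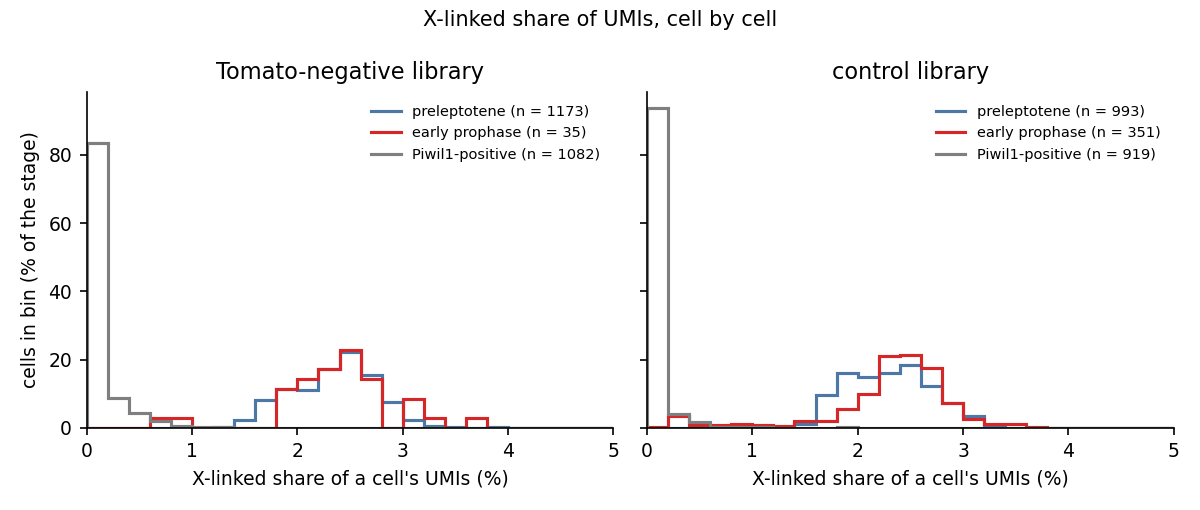
Share of cells of each stage (%, y axis) by the X-linked share of a cell's UMIs (%, x axis, bins of 0.2) in each library. Members (red) lie over preleptotene cells (blue) near 2.4%, *Piwil1*-positive cells (grey) lie at the left edge, and a few members, 23 in the control and 2 in the Tomato-negative library, fall below 1%.

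Members were not uniform, and *Prdm9* and *Zfy2* were mostly found in different cells. *Zfy2* had a UMI in 17 of 194 control members with a *Prdm9* UMI (8.76%, 5.19 to 13.7) and in 55 of 157 without (35.03%, 27.6 to 43.0), at median depths of 4387 and 4415 UMIs. *Stra8* (1 or 2 UMIs, by the rule) was seen in 43.8% and 12.1% of these cells, and *Msh4* in 10.8% and 22.3%. In the Tomato-negative library *Zfy2* was found in 2 of 20 members with *Prdm9* and 6 of 15 without, but the latter were deeper (medians of 6337.5 and 12983 UMIs). Other genes also differed between these control members, and the examples were chosen after their values were seen. *Tex15* was at 2930 CPM in members with and 1130 CPM in members without a *Prdm9* UMI, *Syce2* at 1253 and 602 CPM, *Atm* at 318 and 118 CPM and *Gm4969* at 182 and 55.9 CPM. Higher in members without *Prdm9* were *Zfy2* (25.6 and 132 CPM), *Zfy1* (28.9 and 92.7 CPM), *Gm42923* (37.8 and 209 CPM), *Mov10l1* (339 and 951 CPM), the cyclin-kinase subunit *Cks2* (142 and 599 CPM), the HOP2 partner *Mnd1* (20.03 and 93.9 CPM) and the kinase *Aurka* (14.5 and 67.3 CPM). *Sycp1* (2834 and 3351 CPM), *Rad51ap2* (533 and 469.7 CPM) and *Spo11* (97.9 and 109 CPM) differed by under 2-fold. A UMI of a low gene is missed in many cells, so that the lack of a UMI does not show the lack of a transcript.

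Members of the libraries differed in some genes, in a comparison that cannot be told apart from genotype, age, tamoxifen treatment, sort and depth. Of 6078 genes measured in both, 256 (4.21%) were at least 2-fold higher in Tomato-negative members and 235 (3.87%) at least 2-fold lower. *Gm10260* was at 256 CPM in Tomato-negative and 0.593 CPM in control members, and *Defb19*, a beta-defensin of Sertoli cells, at 186 and 0.593 CPM, and both genes showed the same gap in preleptotene cells (218 and 0.555 CPM, and 216 and 1.94 CPM). Lower in Tomato-negative members were *Acta2* (8.34 and 71.1 CPM) and *Myh11* (0 and 43.3 CPM), whose control UMIs lay in few cells, and *Gm10505* (27.8 and 226 CPM). *Gm43409*, *Sdc4* and *Hist1h2ap* were the other genes named as higher, and *Col4a4* and *Klhl7* as lower, in Tomato-negative members. Of 53 prophase list genes outside the rule that were measured in both libraries, 5 were at least 2-fold lower in Tomato-negative members and 1 at least 2-fold higher, with a median log2 ratio of -0.43 (Tomato-negative over control) against -0.09 over all 6078 genes, for example *Hormad1* at 703 and 1285 CPM and *Hfm1* at 228 and 468 CPM, and the deeper Tomato-negative cells described above moved with this difference. Markers of undifferentiated spermatogonia summed to 142 CPM in Tomato-negative and 17.2 CPM in control members. In members of at most 10000 UMIs, *Rad51ap2* was at 359 and 533 CPM, *Ccnb3* at 204 and 237 CPM and *Zfy2* at 42.2 and 80.8 CPM. In the *Scf*-cKO library the rule found 26 of 7038 cells (0.369%, 0.241 to 0.541), of which 14 held over 10000 UMIs, with *Sycp1* at 412 CPM and *Gfra1* at 60.8 CPM, and 12 held fewer, with *Sycp1* at 3141 CPM and *Gfra1* at 0. After thinning every cell to 4000 UMIs before the rule was applied, it found 12 of 5887 *Scf*-cKO cells (0.204%), 204 of 4858 control cells (4.2%) and 40 of 5475 Tomato-negative cells (0.731%).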

How the data were processed

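Single-cell libraries were made with a droplet 3′ kit, and the deposited matrices hold UMI counts per gene and cell, which the authors made with Cell Ranger 2.1.1 against GRCm38 (with Seurat 3.1 also named in the submitters' processing notes). Of the merged matrix, only cells whose barcode ends in _1 were used. The 6413 columns with other endings were left out, since the labels do not map them to a sample. Cells with at least 200 detected genes and at most 10% mitochondrial UMIs were kept, and the upper limit of 3500 detected genes given in the study's methods was tried as an alternative. The members and the gene lists were chosen with earlier results of these data known.

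UMIs were summed per library and stage and divided by the stage's total (CPM). Ratios had 0.5 added to each count. Intervals were exact Poisson, Clopper-Pearson or conditional binomial limits at 95% and cover counting error only. With 1 library per group, for which the study names 3 mice, no p-value was computed. A gene was counted as higher or lower at 2-fold in the same direction in both libraries, with at least 50 UMIs over both stages in each. Named genes were the members of the lists and, among genes with at least 100 UMIs over the 3 stages in each library and outside the rule, the 12 furthest above both neighbours and the 8 furthest each way against each neighbour (by the smaller of the libraries' ratios), and the 5 furthest each way between libraries (by the interval end nearest to 1). Doublets were called with Scrublet (scanpy 1.11.5, expected rate 0.06) and left in. Ratios and intervals were computed in Python 3.11.15 with numpy 2.4.6, scipy 1.17.1 and pandas 2.3.3, and the ratio script was tested on simulated data. Promoter windows came from RefSeq (GRCm38.p6). Alternatives changed the cell filters, thresholds, depth and count minimum. One gene of the strand exchange list is not reported here.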

Additional observations from a re-analysis of the deposited data

Results flagged for a closer look

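The prophase ratio over preleptotene cells, which is the summed CPM of 57 prophase genes (the 6 pairing, break, crossover and telomere lists without the *Sycp3*, *Dmc1* and *Meiob* of the rule) in all 393 members divided by that in preleptotene cells, lay on opposite sides of 1 in the libraries. It was 0.833 in the Tomato-negative and 2.19 in the control library. The difference was not tested, since each group is 1 library. Without the cells with at least 10 *Acrv1* UMIs the ratio was 1.53 and 2.28, and without members over 10000 UMIs it was 2.3 and 2.44.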

How the results depend on the processing

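Each group is 1 library whose cells carry no label of the mouse, so leaving out a replicate was not possible. No paired analysis was possible because the groups share no replicates. All values here start from the 393 members with the *Acrv1* cells kept, for which the main values were a member share of 0.626% (Tomato-negative) and 5.78% (control), an X-linked share of 1.65% and 2.14%, a prophase ratio of 0.833 and 2.19 over preleptotene cells and of 1.72 and 3.39 over *Piwil1*-positive cells, 498 genes higher and 1646 lower than in preleptotene cells, 3942 higher and 2279 lower than in *Piwil1*-positive cells, and 3933 genes 2-fold apart between libraries. Only values that moved beyond counting error or 1.5-fold follow. Keeping only cells with 200 to 3500 detected genes gave the member share 1.02% (Tomato-negative) and 9.29% (control), the X-linked share 2.43% (Tomato-negative) and 2.27% (control), the prophase ratio over preleptotene 1.33 (Tomato-negative) and 1.58 (control), the prophase ratio over *Piwil1*-positive 4.87 (Tomato-negative) and 3.12 (control). That limit left very few *Piwil1*-positive cells to compare with, since 1080 of 1082 (Tomato-negative) and 913 of 919 (control) held over 3500 genes. Of 7138 genes measured against preleptotene and 535 against *Piwil1*-positive cells it gave 137 genes higher than in preleptotene cells, 343 genes lower than in preleptotene cells, 233 genes higher than in *Piwil1*-positive cells, 31 genes lower than in *Piwil1*-positive cells and 613 genes 2-fold apart between libraries. A mitochondrial limit of 5% gave the X-linked share 1.62% (Tomato-negative). Leaving out Scrublet doublets gave the X-linked share 1.58% (Tomato-negative), the prophase ratio over preleptotene 0.798 (Tomato-negative) and 2.25 (control) and the prophase ratio over *Piwil1*-positive 1.66 (Tomato-negative) and 3.52 (control). Thinning to 4000 UMIs before the rule gave the member share 4.2% (control), the X-linked share 2.42% (Tomato-negative) and 2.28% (control), the prophase ratio over preleptotene 1.53 (Tomato-negative) and 1.86 (control), the prophase ratio over *Piwil1*-positive 2.13 (Tomato-negative) and 2.39 (control). Of 7689 and 1031 genes measured it gave 168 genes higher than in preleptotene cells, 604 genes lower than in preleptotene cells, 314 genes higher than in *Piwil1*-positive cells, 180 genes lower than in *Piwil1*-positive cells and 312 genes 2-fold apart between libraries. The *Piwil1*-positive group then held 19 (Tomato-negative) and 162 (control) cells. Stricter thresholds (*Sycp3* 5, *Dmc1* 2 and *Meiob* 2 UMIs) gave the member share 0.273% (Tomato-negative) and 2.04% (control), the X-linked share 2.3% (Tomato-negative) and 2.07% (control), the prophase ratio over preleptotene 1.94 (Tomato-negative) and 2.31 (control), the prophase ratio over *Piwil1*-positive 4.01 (Tomato-negative) and 3.59 (control) and 270 genes 2-fold apart between libraries. Requiring 0 *Stra8* UMIs gave the member share 0.225% (Tomato-negative) and 4.08% (control), the X-linked share 2.07% (control), the prophase ratio over preleptotene 2.08 (control), the prophase ratio over *Piwil1*-positive 1.76 (Tomato-negative) and 3.22 (control). It gave 849 genes higher than in preleptotene cells, 862 genes lower than in preleptotene cells and 1856 genes 2-fold apart between libraries. At least 5 *Stra8* UMIs in preleptotene cells gave the prophase ratio over preleptotene 0.800 (Tomato-negative). At least 1 *Piwil1* UMI in *Piwil1*-positive cells gave the prophase ratio over *Piwil1*-positive 1.77 (Tomato-negative). A minimum of 20 UMIs per gene gave 848 genes higher than in preleptotene cells. Leaving out cells with 10 *Acrv1* UMIs (chosen after seeing the data) gave the X-linked share 2.26% (Tomato-negative) and 2.23% (control), the prophase ratio over preleptotene 1.53 (Tomato-negative) and 2.28 (control), the prophase ratio over *Piwil1*-positive 3.26 (Tomato-negative) and 3.62 (control), 730 genes lower than in preleptotene cells and 491 genes 2-fold apart between libraries. Leaving out members over 10000 UMIs (also chosen after seeing the data) gave the member share 0.369% (Tomato-negative), the X-linked share 2.52% (Tomato-negative) and 2.27% (control), the prophase ratio over preleptotene 2.3 (Tomato-negative) and 2.44 (control), the prophase ratio over *Piwil1*-positive 4.73 (Tomato-negative) and 3.79 (control) and 524 genes 2-fold apart between libraries. A minimum of 10 member UMIs (also chosen after seeing the data) gave 552 genes lower than in preleptotene cells and 1001 genes lower than in *Piwil1*-positive cells. The Tomato-negative prophase ratio over preleptotene cells thus changed side of 1 under 5 of these settings, and the cause was not tested.

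Of single genes, whose values are over the 386 members, 1166 values stayed within their counting error, 489 moved beyond it and 9 changed sign. The log2 ratio over preleptotene cells turned to 0.17 for *Ascl2*, 0.043 for *Slc7a2* and 1.84 for *Dnmt3b* (Tomato-negative), and that over *Piwil1*-positive cells to -0.18 for *Pmaip1* and -0.10 for *Vamp9* (control), with 200 to 3500 detected genes. Very few *Piwil1*-positive cells remained under that limit. Thinning turned the ratio over preleptotene cells to 0.56 for *Slc7a2* and over the 19 *Piwil1*-positive cells left to -0.31 for *Mov10l1* (Tomato-negative). With the *Acrv1* cells kept, it was -0.070 for *Rnf212b* and -0.14 for *Atr* (Tomato-negative over preleptotene cells). Genes with under 10 UMIs over both stages gave no value under a setting. The 35 Tomato-negative members left, 12 of them over 10000 UMIs, limit that library's values to genes of many UMIs.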
